A study of Mus musculus with 20 samples.

Results

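The cytochrome P450 genes of families 1 to 4 were followed in mouse livers after knockdown of HuR. They were taken as every protein-coding gene whose symbol starts with CYP, a digit from 1 to 4 and a letter, which gave 36 of the 60607 human genes measured in humanized mouse livers and 81 of the 55335 mouse genes measured in wild-type (WT) mouse livers. The human genes fall into 20 subfamilies and the mouse genes into 22. Only 10 symbols occur in both species, so that 26 human and 71 mouse genes have no counterpart of the same name. A mean of at least 1 TPM (reads on a gene corrected for its length and for the library's total) was reached by 27 human and 51 mouse genes, and these were tested with limma on log2(TPM + 1). Below, p-values are adjusted over all genes by the Benjamini-Hochberg method, and a gene is called, or said to rise or fall, where its unadjusted limma p is under 0.05.

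P450 enzymes are haem proteins of the endoplasmic reticulum that take electrons from P450 oxidoreductase and insert an oxygen atom into lipophilic substrates. In hepatocytes, families 1 to 3 are known for the metabolism of drugs, carcinogens and steroids, and family 4 for the hydroxylation of fatty acids. Many of these genes are induced through the receptors AHR, CAR, PXR and PPARα, and several lie in tandem clusters that differ between mouse and human. HuR, encoded by ELAVL1, is an RNA-binding protein that binds U-rich and AU-rich sequence, largely in 3′ UTRs.

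The study asked whether loss of the same post-transcriptional regulator changes human and mouse liver genes alike. Humanized mice were TK-NOG mice, immune-deficient animals whose own hepatocytes carry an albumin promoter-driven thymidine kinase and were killed with ganciclovir (25 mg/kg at 8 to 9 weeks of age). They then received 1000000 primary human hepatocytes and were used 8 to 12 weeks later if serum human albumin exceeded 0.5 mg/ml. WT mice were male C57BL/6, bought at 8 weeks of age. Of the humanized mice, 4 received adenovirus with an shRNA against human HuR (HuR KD) and 4 the control virus (LacZ). The WT mice were 6 given an shRNA against mouse HuR and 6 given LacZ. Each animal received 2000000000 pfu intravenously, and livers were collected after 7 days, the animals having fasted for 4 h. The livers of humanized mice still contain host mouse cells, and the table used here lists human genes alone. The human cells came from cryopreserved primary hepatocytes, and the sources used here do not tie animals to donors.

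Depth, recovered from the steps of the TPM values, was 2670469 to 20302454 reads on genes in the humanized livers. In WT livers it was 12960373 to 44668272 reads, except for LacZ replicate 2 with 1423985. HuR KD replicate 4 and LacZ replicate 2 of the humanized mice stood apart, since they were the deepest libraries and correlated more with each other (Pearson r = 0.965 across genes) than any other pair (at most 0.931). Mitochondrial rRNA took 49.1% of TPM in both, against 27.2 to 36.0% in the other humanized livers and 0% in the WT livers. TPM is a share of the library's total, so this bears on the level of every other gene. In WT mice, LacZ replicate 2 and HuR KD replicate 6 had the lowest correlations with the other libraries (at most 0.929 and 0.961). Results are given below with and without these livers where they matter. In both sets of livers the human or mouse hepatocyte markers were abundant (38135 to 87908 summed TPM for 5 markers, and 58371 to 76047 for 4). HuR mRNA was 2.37 to 4.05 TPM in the humanized HuR KD livers and 4.77 to 6.17 in LacZ, without overlap (61.0% of the LacZ mean, two-sided exact permutation p = 0.0286, the smallest that 4 against 4 allows). In WT livers it was 3.72 to 5.62 TPM with HuR KD and 8.58 to 10.7 with LacZ (51.7%, two-sided exact permutation p = 0.00216, the smallest that 6 against 6 allows).

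Because HuR acts on 3′ UTRs, the UTRs of the mouse genes were read first (GENCODE M21, build GRCm38). The core of an AU-rich element, ATTTA in the DNA letters used here, occurred in the 3′ UTR of 25 of 49 tested P450 genes whose annotated UTR spans 50 bases or more (51.0%), against 66.3% of 10992 tested genes of all kinds. P450 UTRs were also shorter, with a median of 335 bases against 958. The longer form TATTTAT, which contains ATTTA, was present in Cyp2a5 alone, or 2.04% of the P450 genes against 27.1% of all genes, and the still longer TTATTTATT in 0 against 6.79%. Over all tested genes with such a UTR, ATTTA was in 69.5% of the 920 that fell with HuR KD in WT livers and 56.3% of the 1076 that rose. Among the 13 P450 genes that fell (below), 6 held ATTTA (46.2%), against 19 of the 35 P450 genes that were not called (54.3%). The following sites, 30 bases on the gene's strand with the motif in capitals, are those of the genes that fell and, for comparison, of the neighbours Cyp2c37 and Cyp2c54 and of Cyp4a14, which were not called. The site of Cyp4v3, which has 8 copies of ATTTA, is not printed.
Cyp2a5, chr7:26843243-26843272, plus strand: aaagtagatatTATTTATggcataagtagt
Cyp2c50, chr19:40113743-40113772, plus strand: ctatgaacatacATTTAccaatttgcagat
Cyp2c37, chr19:40012036-40012065, plus strand: ctatgaacaaacATTTAccaatttgcagat
Cyp2c54, chr19:40038119-40038148, minus strand: taatgaacatacATTTAccaatttgcaaat
Cyp2c39, chr19:39568242-39568271, plus strand: gtccaggtctttATTTAcctctttacttat
Cyp2j5, chr4:96629065-96629094, minus strand: ctggcctattaaATTTAaattcagaaagga
Cyp2u1, chr3:131289558-131289587, minus strand: cttttgtttatcATTTAaagtaaccatttt
Cyp4a14, chr4:115486476-115486505, minus strand: tttcccaatttcATTTAagacacaggaaaa
Cyp2c50, Cyp2c37 and Cyp2c54 share this site almost letter for letter, while only Cyp2c50 of the 3 passed the test. A match is a description of the letters and was not examined for HuR binding.

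Human P450 mRNAs took 2717 to 4338 TPM in the humanized LacZ livers and 2934 to 3845 in the HuR KD livers, which is 0.827 to 1.32% and 1.02 to 1.28% of the protein-coding TPM. Among the most abundant in LacZ livers were CYP3A4 (723 ± 619 TPM, SD, n = 4), CYP2E1 (589 ± 158), CYP2C8 (530 ± 102), CYP3A5 (314 ± 90.2) and CYP2A6 (178 ± 86.5). Given these SDs, the order of CYP3A4, CYP2E1 and CYP2C8 is not separated by more than the spread between livers. At the other end, 9 genes did not reach the filter, and CYP2F1, CYP4B1 and the readthrough gene CYP3A7-CYP3A51P were at 0 in every liver. CYP2D6, which oxidises many basic drugs, was among the untested genes at 0 to 1.16 TPM, or 0 to 13 reads. Whether reads shared with related genes were lost from this count was not tested.

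With HuR KD, human CYP1A1, CYP1A2, CYP2E1 and CYP4F12 rose and CYP4F2, CYP3A5 and CYP4X1 fell in the humanized livers. These are 7 of 27 tested genes (25.9%) with an unadjusted limma p under 0.05, against 11.5% of the 12738 genes tested. By direction, 4 rose (14.8% against 3.60%) and 3 fell (11.1% against 7.87%). After Benjamini-Hochberg adjustment over all genes 0 passed, against 0.212% of all genes, and the smallest adjusted p of a P450 gene was 0.0730. With quantile normalization or voom 1 passed, beside 56 and 63 of all genes. With array weights, or with the filter raised to 5 TPM, 2 passed (1 higher, 1 lower), beside 88 of 12738 and 60 of 6447 genes. The median log2 fold change of the 27 genes was -0.039, and that of all genes -0.054. With median-of-ratios scaling these medians were 0.037 and 0.0075. The numbers depend on the scaling: with median-of-ratios factors, protein-coding rescaling or voom 6 rose and 3 fell, and with quantile normalization 5 rose and 2 fell, while each of the 7 genes kept its sign. Over all genes the split went from 458 higher and 1003 lower to 791 and 876 with median-of-ratios factors and 778 and 867 with quantile normalization. Without the 2 libraries that stood apart 13 genes were called, 7 higher and 6 lower, including all 7 above.

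Family 1 holds the AHR-induced enzymes that activate polycyclic hydrocarbons and arylamines, and its summed level was 157 to 216 TPM with HuR KD and 75.7 to 129 with LacZ, without overlap. CYP1A1 (ENSG00000140465.14), the AHR target with the widest range of induction, was 32.8, 27.5, 25.2 and 11.5 TPM in the 4 HuR KD livers and 4.97, 10.2, 6.19 and 4.92 in the LacZ livers. Every HuR KD liver was above every LacZ liver, though HuR KD replicate 4 was close to LacZ replicate 2, the pair of libraries that resembled each other. The mean was 369% of LacZ, a log2 fold change of 1.70 ± 0.33 (SE; adjusted p = 0.0866). CYP1A2 (ENSG00000140505.7), which clears caffeine and theophylline, was 165, 158, 138 and 143 TPM with HuR KD and 59.7, 117, 112 and 94.2 with LacZ. These groups did not overlap either (158% of LacZ, log2 fold change 0.69 ± 0.21, adjusted p = 0.251). CYP1B1, found mostly outside hepatocytes, had 2.23 to 19.0 TPM with HuR KD and 1.73 to 11.1 with LacZ (log2 fold change 0.92 ± 0.67, adjusted p = 0.655). Without HuR KD replicate 4 it was called, with a log2 fold change of 1.54.

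**Figure D1:**
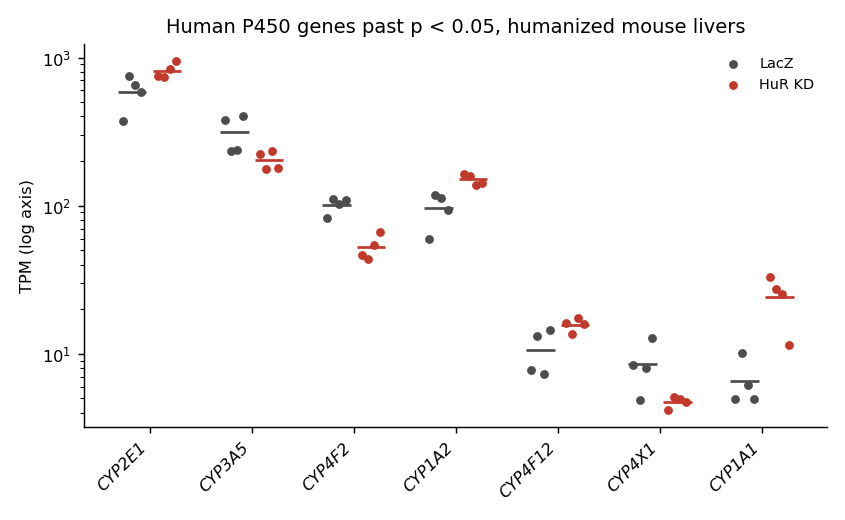
TPM of the 7 human P450 genes past an unadjusted p of 0.05, on a log axis, for 4 LacZ (grey) and 4 HuR KD (red) humanized livers. Points are livers and bars are means. CYP1A1 and CYP1A2 lie higher and CYP4F2 lower in every HuR KD liver, while the groups of CYP2E1, CYP3A5, CYP4F12 and CYP4X1 overlap.

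In family 2, which summed to 2026 to 2471 TPM with HuR KD and 1734 to 2219 with LacZ, 1 of 11 tested genes was called. CYP2E1 (ENSG00000130649.10), the ethanol-inducible enzyme that also oxidises paracetamol, was 751, 734, 834 and 942 TPM with HuR KD and 375, 747, 651 and 582 with LacZ. HuR KD lay above all LacZ livers in 3 of 4 livers, with LacZ replicate 2 inside the HuR KD range. The log2 fold change was 0.51 ± 0.21 (adjusted p = 0.415). This call is marginal: it was lost on leaving out HuR KD replicate 1, 2, 3 or 4 or LacZ replicate 1 or 4, and with all livers when no filter on low genes was applied or eBayes was run without trend. The log2 fold change was 0.30 without LacZ replicate 1.

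CYP2A6, the coumarin and nicotine hydroxylase, was 391, 285, 363 and 172 TPM with HuR KD and 197, 66.1, 173 and 276 with LacZ, so that 3 of 4 HuR KD livers exceeded every LacZ liver (log2 fold change 0.87 ± 0.43, adjusted p = 0.486). It passed the threshold when HuR KD replicate 4 or LacZ replicate 4 was left out (log2 fold change 1.12 and 1.14), without the 2 libraries that stood apart (0.70), and with median-of-ratios factors, protein-coding rescaling or voom (0.95 to 0.96). Without LacZ replicate 2, its lowest liver, the log2 fold change was 0.45 and did not pass. In the CYP2C subfamily, CYP2C8, which oxidises taxanes, and CYP2C19, which oxidises proton pump inhibitors, were not called. CYP2C8 was 441 to 571 TPM with HuR KD and 442 to 677 with LacZ (log2 fold change -0.052 ± 0.16). Its sign turned under each of the 4 other scalings and when HuR KD replicate 2 or LacZ replicate 2 was left out. CYP2C19 was 6.16 to 20.1 TPM with HuR KD and 13.0 to 21.8 with LacZ (-0.57 ± 0.31, adjusted p = 0.522). It passed without HuR KD replicate 1 (log2 fold change -0.87) and with voom (-0.72), and was -0.35 without HuR KD replicate 4. CYP2B6, the human CAR target that hydroxylates bupropion, was 20.8 to 38.3 TPM with HuR KD and 26.1 to 48.8 with LacZ (-0.32 ± 0.24, adjusted p = 0.664).

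Family 3 was the most variable among livers. CYP3A4, the main drug-oxidising enzyme of adult human liver, was 187, 316, 497 and 1020 TPM with HuR KD and 256, 575, 1630 and 431 with LacZ. The spread within each group exceeded the difference between them (log2 fold change -0.45 ± 0.62, adjusted p = 0.846), and without LacZ replicate 3, the highest liver, the sign turned (0.062). CYP3A5, a close relative of overlapping specificity, was steadier at 224, 176, 233 and 180 TPM with HuR KD and 381, 233, 239 and 402 with LacZ. It fell by 0.59 ± 0.22 on the log2 scale (adjusted p = 0.336), with 3 of 4 HuR KD livers below every LacZ liver. Leaving out HuR KD replicate 2 or 4 or LacZ replicate 1 or 4 ended that call, with log2 fold changes of -0.53 to -0.46, and so did quantile normalization with all livers (-0.46). The family sum followed CYP3A4, at 443 to 1212 TPM with HuR KD and 665 to 1896 with LacZ.

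Family 4 summed to 188 to 231 TPM with HuR KD and 242 to 300 with LacZ, again without overlap. This was not a shift of the whole family, since 4 of 9 tested genes lay above 0 and 5 below, with a median log2 fold change of -0.039. The mean sum went from 270 TPM with LacZ to 212 with HuR KD, and that of the CYP4F subfamily from 180 to 136. CYP4F2 (ENSG00000186115.13), the ω-hydroxylase of vitamin K, vitamin E and arachidonic acid, was 46.1, 43.5, 54.7 and 66.7 TPM with HuR KD and 82.98, 111, 102 and 109 with LacZ. All HuR KD livers were below all LacZ livers and averaged 52.2% of them (log2 fold change -0.94 ± 0.17, adjusted p = 0.0730). Its neighbour CYP4F12 went the other way, at 16.1, 13.5, 17.5 and 15.9 TPM against 7.73, 13.2, 7.27 and 14.5 (0.57 ± 0.22, adjusted p = 0.370), with 3 of 4 HuR KD livers above every LacZ liver. That call was lost without HuR KD replicate 1, 3 or 4 or LacZ replicate 1 or 3, where the log2 fold change was 0.43 to 0.57, and with the replicate number as a block (0.57). CYP4F3 (36.2 to 50.8 and 35.1 to 52.3 TPM) and CYP4F11 (18.5 to 24.4 and 17.0 to 24.3 TPM) overlapped throughout, with log2 fold changes of -0.039 and 0.058. CYP4X1, a little-characterised family member, was 4.19 to 5.15 TPM with HuR KD and 4.88 to 12.8 with LacZ (-0.67 ± 0.24, adjusted p = 0.318), and rested on 16 to 131 reads a liver. It lost its call with voom on recovered reads (-0.50) and without HuR KD replicate 1 (-0.62).

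Among the lipid enzymes of this family, CYP4A11, the PPARα-responsive hydroxylase of lauric acid, was 29.1 to 36.4 TPM with HuR KD and 31.6 to 45.5 with LacZ (log2 fold change -0.31 ± 0.15, adjusted p = 0.475). It passed the threshold without HuR KD replicate 1 or LacZ replicate 2 (-0.38 and -0.41), without the 2 libraries that stood apart (-0.37), with array weights (-0.33) and with no filter on low genes. CYP4V2, mutated in a retinal dystrophy, was below every LacZ liver in all 4 HuR KD livers (20.8 to 23.6 against 24.4 to 29.99 TPM), but by a log2 fold change of only -0.24 ± 0.12 (adjusted p = 0.503). In total the HuR KD livers lay entirely above LacZ for 2 of the 27 tested genes, against 2.13% of all genes tested, and entirely below for 2, against 5.03%.

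**Figure D2:**
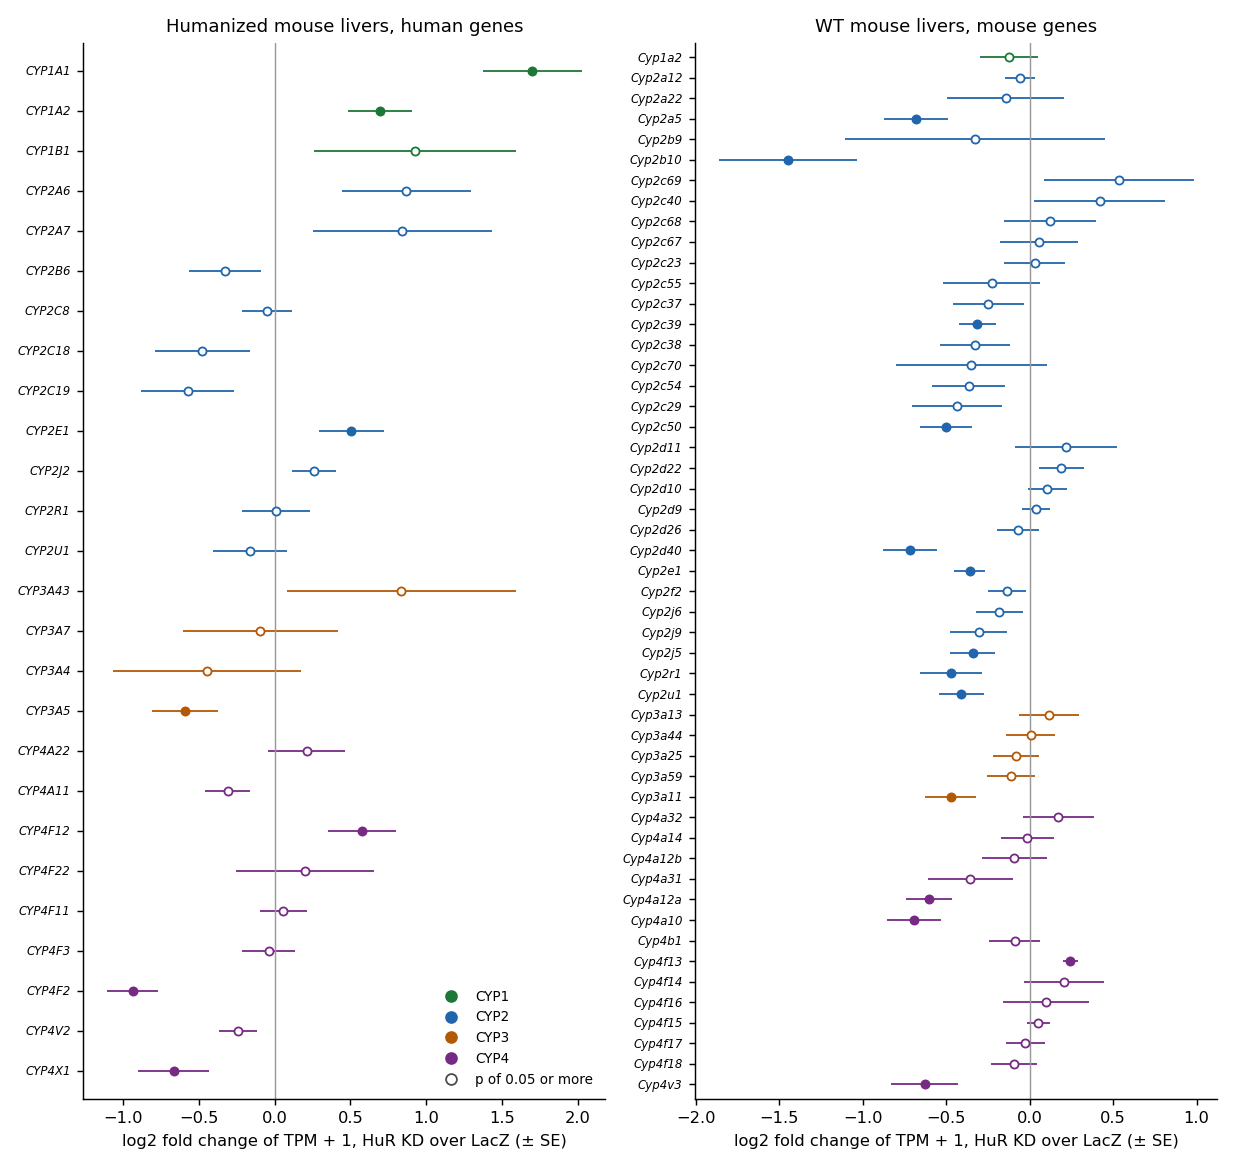
Log2 fold change of TPM + 1 (HuR KD over LacZ) with its SE for tested human (left) and mouse (right) P450 genes, 1 human gene left out, coloured by family, with filled points for an unadjusted limma p under 0.05. Filled points lie on both sides of 0 in the humanized livers, and all but Cyp4f13 lie below 0 in the WT livers.

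In WT livers most called P450 genes fell. Mouse P450 mRNAs took 32747 to 39165 TPM with LacZ and 27411 to 34135 with HuR KD (4.23 to 5.05% and 3.56 to 4.45% of the protein-coding TPM), and the mean with HuR KD was 83.8% of that with LacZ. Of 51 tested genes 13 fell and 1 rose (14 called, 27.5%, against 16.0% of the 15090 genes tested). By direction this was 25.5% lower against 6.94% of all genes, and 1.96% higher against 9.09%. The median log2 fold change was -0.12 over the P450 genes and 0.029 over all genes. Only Cyp4f13 passed after Benjamini-Hochberg adjustment, against 0.888% of all genes. This number depends on the fit. With median-of-ratios factors, eBayes without trend or the replicate number as a block, 0 passed adjusted. With array weights 8 passed (7 lower), beside 1717 of all 15090 genes. Voom gave 6 (5 lower), beside 530, and quantile normalization 3 (2 lower), beside 272. The filter raised to 5 TPM gave 5 (4 lower), beside 221 of 9554 genes. Without LacZ replicate 2 and HuR KD replicate 6, 5 passed (4 lower), beside 790. Across 10 other ways of scaling, filtering or fitting that kept all livers 13 to 15 genes were called, and without LacZ replicate 2 and HuR KD replicate 6 there were 12, all among the 14. Whether fewer hepatocytes of a kind or less RNA per cell underlies a lower level cannot be told apart in bulk tissue.

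**Figure D3:**
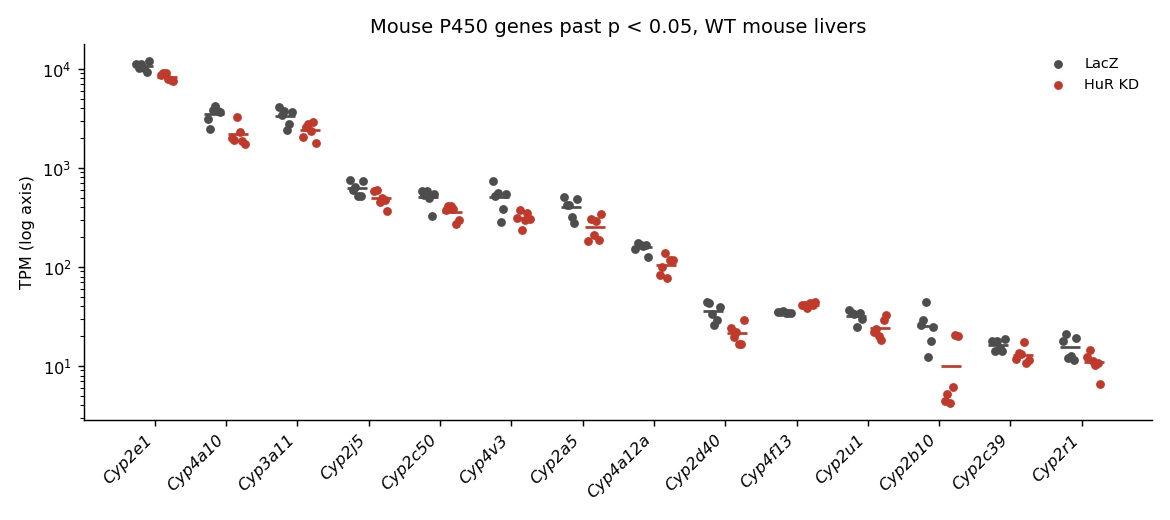
TPM of the 14 mouse P450 genes past an unadjusted p of 0.05, on a log axis, for 6 LacZ (grey) and 6 HuR KD (red) WT livers. Points are livers and bars are means. Cyp2e1 is lower and Cyp4f13 higher in every HuR KD liver, and the other 12 genes overlap between groups.

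Family 2 gave 9 of these genes, all lower, out of 31 tested. Cyp2e1 (ENSMUSG00000025479.9), the most abundant mouse P450 with 29.7% of the summed level in LacZ livers, lies on chr7:140763739-140774987 on the plus strand. It had a lowest, median and highest level of 7623, 8308 and 9185 TPM with HuR KD and 9332, 10732 and 11984 with LacZ, and the groups did not overlap. HuR KD averaged 77.9% of LacZ, a log2 fold change of -0.36 ± 0.092 (adjusted p = 0.0830). The call held in every set of livers tried but was lost when no filter on low genes was applied.

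Cyp2b10 (chr7:25897620-25926624, plus strand), the classical target gene of CAR, showed the steepest decrease. Its levels were 4.26, 5.64 and 20.5 TPM (lowest, median, highest) with HuR KD and 12.3, 25.5 and 43.8 with LacZ. Below every LacZ liver were 4 HuR KD livers, at 4.26 to 6.13 TPM, while replicates 5 and 6 were at 20.5 and 20.1 inside the LacZ range (39.4% of the LacZ mean, log2 fold change -1.45 ± 0.41, adjusted p = 0.111). Cyp2a5, a coumarin hydroxylase and the mouse relative of CYP2A6, was 184, 252 and 345 TPM against 278, 422 and 510 (-0.68 ± 0.19, adjusted p = 0.111), with 3 HuR KD livers below every LacZ liver. In its 3′ UTR lies the one TATTTAT site printed above. Since 37.0% of its 50-base windows also occur in another P450 gene, part of its reads could have been assigned to a relative. Cyp2d40, which had 16.7, 20.8 and 29.1 TPM against 25.8, 36.3 and 44.1, fell to 59.9% of LacZ (-0.71 ± 0.16, adjusted p = 0.0573), and 5 of 6 HuR KD livers were below every LacZ liver.

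The 13 tested genes of the Cyp2c subfamily split into 8 below and 5 above 0, with 2 called. All 15 annotated span chr19:39007019-44029208, with Cyp2c23 apart from the others at 44005022-44029208. Cyp2c50 was 270, 382 and 415 TPM with HuR KD and 328, 538 and 591 with LacZ (-0.50 ± 0.15, adjusted p = 0.136). Cyp2c39 was 10.6, 12.5 and 17.3 against 14.0, 16.5 and 18.6 TPM (-0.31 ± 0.11, adjusted p = 0.195). In the shallow WT LacZ replicate 2, Cyp2c39 rested on 15 reads, Cyp2r1 on 26, Cyp2b10 on 36 and Cyp2d40 on 46. Of these genes only Cyp2r1 lost its call without that liver. The CAR-responsive Cyp2c29, most abundant of the subfamily, spanned 380 to 738 TPM with HuR KD and 382 to 1074 with LacZ and was not called (-0.44 ± 0.27, adjusted p = 0.471). Without LacZ replicate 4 or 5 it passed (-0.62 and -0.57), and so did Cyp2c54 without LacZ replicate 5 (-0.54). Many Cyp2c genes resemble each other, and 18.3% of the windows of Cyp2c50 and 11.4% of those of Cyp2c39 are shared with another P450 gene. Cyp2c23 and Cyp2c70 share 0%.

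Further genes of family 2 fell by less. Cyp2j5, an arachidonic acid epoxygenase, was 364, 486 and 598 TPM against 518, 614 and 752 (-0.34 ± 0.13, adjusted p = 0.234). Its call was lost without HuR KD replicate 6 or LacZ replicate 1 or 6 (-0.26 to -0.29), and without both HuR KD replicate 6 and LacZ replicate 2 (-0.27). Cyp2u1, a long-chain fatty acid hydroxylase, was 18.4, 22.97 and 32.6 TPM against 25.0, 33.7 and 36.6 (-0.41 ± 0.14, adjusted p = 0.166). The vitamin D 25-hydroxylase Cyp2r1 was 6.57, 11.04 and 14.5 TPM against 11.5, 15.3 and 20.8 (-0.47 ± 0.19, adjusted p = 0.236). It was not called without HuR KD replicate 6 or LacZ replicate 1, 2 or 6 (-0.35 to -0.43), without both HuR KD replicate 6 and LacZ replicate 2 (-0.26), or with array weights (-0.27). In contrast, 0 of the Cyp2d genes other than Cyp2d40 were called. The male-biased Cyp2d9 was 1647, 1813 and 2365 TPM against 1733, 1848 and 1856 (0.038 ± 0.087), and Cyp2d26 was 693, 791 and 1176 against 758, 870 and 1035 (-0.068 ± 0.12).

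In family 3, Cyp3a11, the main mouse counterpart of CYP3A4 and a PXR target, was 1789, 2474 and 2923 TPM with HuR KD and 2420, 3529 and 4113 with LacZ. It fell to 71.9% of LacZ (-0.47 ± 0.15, adjusted p = 0.154), and 3 HuR KD livers were below every LacZ liver. The other 4 tested Cyp3a genes were not called, among them Cyp3a25 at 1096, 1804 and 2030 TPM against 1536, 1800 and 1999 (-0.080 ± 0.14). Family 1 was represented by Cyp1a2 alone, since Cyp1a1 and Cyp1b1 stayed under the filter. Its levels were 132, 165 and 206 TPM with HuR KD and 118, 197 and 256 with LacZ, with every HuR KD liver inside the LacZ range (-0.12 ± 0.17, adjusted p = 0.786).

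Family 4 contained both directions. Cyp4a10 and Cyp4a14, neighbouring PPARα targets on chromosome 4 that hydroxylate fatty acids, were unlike each other. Cyp4a10 was 1755, 1978 and 3246 TPM with HuR KD and 2482, 3688 and 4207 with LacZ, with 5 of 6 HuR KD livers below every LacZ liver (62.5% of LacZ, -0.69 ± 0.16, adjusted p = 0.0636). Cyp4a14 was 4301, 5967 and 7497 TPM against 4604, 6144 and 7104 (99.8% of LacZ, -0.013 ± 0.16, adjusted p = 0.977). The difference between the 2 genes was not tested. Cyp4a12a, a male-biased arachidonic acid hydroxylase, was 77.8, 109 and 138 TPM against 126, 164 and 174 (-0.60 ± 0.14, adjusted p = 0.0573), with 5 of 6 HuR KD livers below every LacZ liver. Its near copy Cyp4a12b was 33.7 to 71.3 TPM against 46.2 to 82.6 (-0.091 ± 0.20). Because 48.9% of the windows of Cyp4a12a, 49.4% of those of Cyp4a12b and 29.8% of those of Cyp4a10 occur in other P450 genes, the division of reads among these genes is uncertain, whereas Cyp4a14 shares 0.235%.

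Cyp4v3, the mouse relative of CYP4V2, was 237, 308 and 380 TPM with HuR KD and 281, 527 and 743 with LacZ (-0.63 ± 0.20, adjusted p = 0.148). The 1 gene that rose was Cyp4f13 (ENSMUSG00000024055.15; chr17:32924688-32947402, minus strand), a relative of the leukotriene hydroxylases. It was 38.5, 41.4 and 43.7 TPM with HuR KD and 34.4, 34.7 and 36.0 with LacZ, without overlap and with little spread. The increase was small (119% of LacZ, log2 fold change 0.24 ± 0.045, adjusted p = 0.0361), and its adjusted p ranged from 0.00276 to 0.132 over the alternatives. The other 5 tested Cyp4f genes had log2 fold changes of -0.092 to 0.21, and 0 were called. HuR KD livers lay entirely above LacZ for 1 of the 51 tested genes (1.25% of all genes) and entirely below for 1 (1.23%).

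Promoters of the genes that did not overlap between groups and of Cyp2a5 are shown here as the 250 bases before and 50 after the RefSeq start (GRCm38.p6, gene strand), with matches on either strand to the motifs TATAAA and AGGTCA and to CCAAT in capitals.
Cyp2e1, chr7:140763569-140763868: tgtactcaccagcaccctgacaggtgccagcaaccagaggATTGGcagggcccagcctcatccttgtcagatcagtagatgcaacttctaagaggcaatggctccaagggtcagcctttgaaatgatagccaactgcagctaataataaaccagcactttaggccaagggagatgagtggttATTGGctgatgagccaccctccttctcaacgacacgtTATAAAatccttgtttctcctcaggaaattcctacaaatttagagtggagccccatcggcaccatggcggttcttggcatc
Cyp2a5, chr7:26835089-26835388: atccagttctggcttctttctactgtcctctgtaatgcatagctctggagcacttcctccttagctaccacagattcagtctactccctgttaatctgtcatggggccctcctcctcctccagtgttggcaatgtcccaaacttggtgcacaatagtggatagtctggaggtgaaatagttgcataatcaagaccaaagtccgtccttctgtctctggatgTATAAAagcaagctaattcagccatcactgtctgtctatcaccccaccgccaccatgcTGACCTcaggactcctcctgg
Cyp4f13, chr17:32947312-32947611: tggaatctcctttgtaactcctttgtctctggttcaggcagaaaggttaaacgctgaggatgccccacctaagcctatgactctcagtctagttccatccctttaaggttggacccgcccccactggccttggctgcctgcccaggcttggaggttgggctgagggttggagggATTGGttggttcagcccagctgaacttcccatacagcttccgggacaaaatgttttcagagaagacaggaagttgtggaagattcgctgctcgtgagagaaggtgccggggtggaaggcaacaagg
RefSeq gave 73 such windows for 66 of the 81 mouse genes. Among the 46 windows of tested genes, TATAAA was found in 47.8% (13.6% of all 32851 promoters), CCAAT in 60.9% (37.4%), AGGTCA, one arm of nuclear receptor sites, in 28.3% (16.3%), the FOXA motif TGTTTAC in 13.0% (3.65%) and the AHR core GCGTG in 15.2% (32.4%). Motifs were counted separately, on both strands, and can overlap. The 46 windows belong to 41 genes. The 32851 promoters were not limited to genes tested in these livers, whereas the UTR comparison above was. TATAAA lies close to the start in Cyp2e1 and is absent from the window of Cyp4f13, but it was found in 22 of the 46 windows. Whether a promoter motif goes with the direction of change was not tested.

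**Figure D4:**
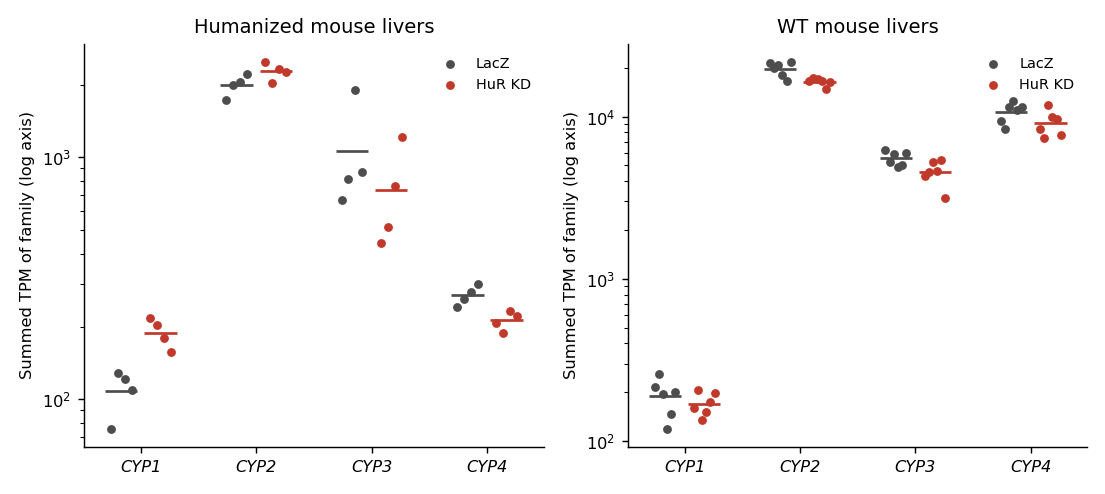
Summed TPM of P450 families 1 to 4 on log axes, per liver, for LacZ (grey) and HuR KD (red), with bars at the means. In humanized livers the CYP1 sums are higher and the CYP4 sums lower in every HuR KD liver, and in WT livers the groups of all 4 families overlap.

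Summed by family, the humanized HuR KD livers had 173% of the LacZ mean for CYP1, 114% for CYP2, 69.1% for CYP3 and 78.7% for CYP4, and 99.1% over all P450 genes. The WT values were 90.0%, 83.3%, 82.0% and 85.6%. These sums were not tested. The CYP3 value of the humanized livers rests on LacZ replicate 3, without which its log2 ratio went from -0.53 to -0.095, and without HuR KD replicate 4 it was -0.89.

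Only 4 symbols could be tested in both species, and in the joint limma fit 2 of these pairs differed between species in their response to HuR KD (unadjusted p under 0.05, reached by 19.8% of 8123 pairs of the same symbol). CYP2E1 rose in humanized livers and Cyp2e1 fell in WT livers, a difference of 0.87 ± 0.21 on the log2 scale (adjusted p = 0.0171, where 5.06% of pairs passed adjusted). CYP1A2 rose where Cyp1a2 was not called, a difference of 0.82 ± 0.27 (adjusted p = 0.0874). CYP2R1 and CYP2U1, at 4.42 ± 1.49 and 2.12 ± 0.602 TPM with HuR KD and 4.27 ± 0.816 and 2.52 ± 0.840 with LacZ (SD, n = 4), were not called in humanized livers (0.0093 ± 0.23 and -0.16 ± 0.24). Cyp2r1 and Cyp2u1 fell in WT livers, but the differences between species did not pass (0.48 ± 0.29, adjusted p = 0.386, and 0.25 ± 0.24, adjusted p = 0.631). That of CYP2R1 passed the unadjusted threshold with median-of-ratios factors and quantile normalization (0.56 in both) and without humanized HuR KD replicate 1 (0.65). Without the filter on low genes 8 pairs were tested and 4 called, and CYP1A1 then differed by 1.96 (limma interaction adjusted p = 0.00358), with mouse Cyp1a1 at a mean of 0.753 TPM with HuR KD and 1.15 with LacZ, while CYP2E1 was just short of that threshold (limma adjusted p = 0.0507). Species, host strain and shRNA differed together between the sets of livers and cannot be told apart.

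**Figure D5:**
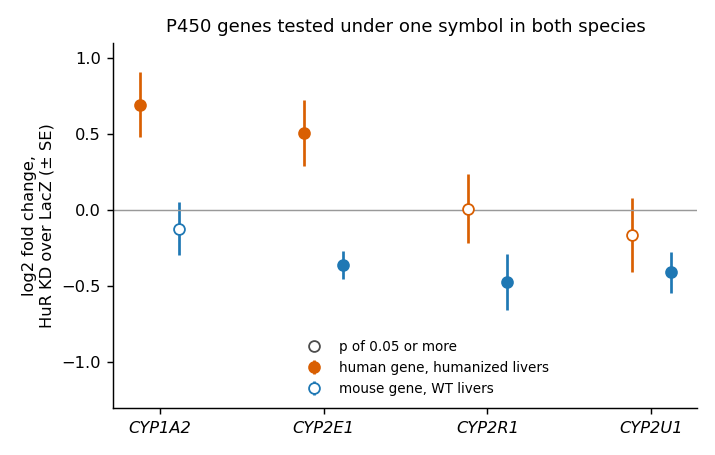
Log2 fold change of TPM + 1 (HuR KD over LacZ) with its SE for the 4 P450 symbols tested in both species, in humanized (orange, 4 against 4 livers) and WT (blue, 6 against 6 livers) mice, filled where the unadjusted limma p was under 0.05. CYP2E1 lies above 0 in human and below 0 in mouse genes.

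Among genes with the same symbol in both species 4 of 7 were called in humanized livers (3 higher, 1 lower) and 3 of 5 in WT livers (all lower), where 11.5% and 16.0% of all genes were called. Among those named in 1 species alone the numbers were 3 of 20 (1 higher, 2 lower) and 11 of 46 (1 higher, 10 lower). The shares of all genes called higher and lower were 3.60% and 7.87% in humanized and 9.09% and 6.94% in WT livers, and the groups that follow, of at most 9 genes, stand beside them. Grouped by receptor, from hand-written lists, the AHR targets gave 2 of 3 higher in humanized livers (CYP1A1, CYP1A2). The CAR and PXR targets gave 1 lower of 7 in humanized livers (CYP3A5) and 3 lower of 6 in WT livers (Cyp2a5, Cyp2b10, Cyp3a11), with a median log2 fold change of -0.32 and -0.45. PPARα targets gave 0 of 2 and 1 lower of 4 (Cyp4a10). Of the male-biased genes 1 of 3 fell in WT livers (Cyp4a12a), and of the female-biased ones 4 of 9 were tested and 0 called.

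The regulators and partners of P450 enzymes were measured alongside. CAR itself (NR1I3) was 23.5 to 27.6 TPM with HuR KD and 14.1 to 20.03 with LacZ in humanized livers (log2 fold change 0.62 ± 0.15, adjusted p = 0.139). In WT livers Nr1i3 was 124 to 169 TPM with HuR KD and 161 to 291 with LacZ (-0.63 ± 0.13, adjusted p = 0.0454). Beside 11.5% of all genes called in humanized livers, of 20 regulators tested there 3 rose (NR1I3, its partner RXRA by 0.46, and ESRRA by 0.51) and 2 fell (FOXA1 with -0.88 and the glucocorticoid receptor NR3C1 with -0.66). Of 19 in WT livers 3 were called, a share near the 16.0% of all genes, of which 1 rose (the PXR gene Nr1i2, 0.18) and 2 fell (Nr1i3 and Nr3c1, -0.21). POR, the reductase that supplies electrons to these enzymes, was 101 to 196 TPM with HuR KD and 49.5 to 155 with LacZ in humanized livers (0.79 ± 0.34, adjusted p = 0.423), where CYB5B fell (-0.76). The remaining 8 of 10 partner and haem genes were not called, and in WT livers 1 of 10 was (Pgrmc1, -0.21), beside the 16.0% of all genes.

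Markers of other cell types and liver zones were measured as well. Their counts stand beside 16.0% of all genes called in WT livers and 11.5% in humanized livers. In WT livers 3 of 6 macrophage markers fell (Clec4f -0.75, Cd68 -0.40, Adgre1 -0.40), and their sum was 117 to 196 TPM with HuR KD and 163 to 229 with LacZ. The hepatocyte markers, 0 of 4 called, summed to 64057 to 76047 and 58371 to 73996. Pericentral markers, from the zone in which Cyp2e1 and Cyp1a2 are found, gave 1 higher (Glul, 0.12) and 1 lower (Axin2, -0.49) of 7 in WT livers, and periportal markers 2 higher of 6 (Pck1, 0.29, and Hal, 0.45). Endothelial markers gave 1 higher of 5 (Stab2, 0.18), stellate markers 1 lower of 5 (Lrat, -0.32) and T and NK cell markers 1 lower of 3 tested (Gzmb, -0.60), while 0 of 1 cholangiocyte markers were called. The endothelial and the stellate markers each split into 2 above and 3 below 0, and the 3 T and NK cell markers lay below. In humanized livers 2 of 7 pericentral markers were higher (SLC1A2, 0.93, and OAT, 1.05) and 0 of 6 periportal ones. The pericentral markers lay 4 above and 3 below 0, and their mean sum was 234 TPM with HuR KD and 258 with LacZ. The periportal markers lay 4 above and 2 below 0 in these livers, with mean sums of 1022 and 1118 TPM. There, human T and NK cell markers were at 0 in every liver, macrophage and endothelial markers summed to at most 0.519 and 0.524 TPM, 1 of 3 tested cholangiocyte markers was lower (EPCAM, -1.17, sum 4.71 to 26.8 against 10.1 to 34.9 TPM), and so was the 1 stellate marker tested (RELN, -1.19). The part of these cells and zones in the P450 results was not tested.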

How the data were processed

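The members and gene lists were chosen with earlier results of these data known. Total liver RNA was sequenced from 4 HuR KD and 4 LacZ humanized mice and from 6 and 6 WT mice. The authors trimmed the reads, aligned them with HISAT2 (to joined human and mouse genomes for the humanized livers, GENCODE annotation), counted them per gene with featureCounts and deposited TPM, 1 table per species. The submitters' notes name GRCh38 and mm10. Reads assigned among near-identical P450 genes can be split or dropped by this counting, which bears on mouse Cyp2a, Cyp2c, Cyp2d, Cyp3a and Cyp4a genes. The same limit can hold for related human P450 genes, whose shared sequence was not computed.

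Groups came from the sample titles. Genes with a mean of at least 1 TPM were tested per table on log2(TPM + 1) with limma 3.58.1 in R 4.3.3 (eBayes with trend), and P450 pairs of the same symbol in 1 joint limma fit with a species by knockdown term. P-values set the difference between groups against the spread between these livers. Since the humanized animals are not tied to donors, spread between human donors cannot be told from them. Fold changes on this scale understate those of low genes. Sums over genes have no test. Whole reads were recovered from the TPM steps (tolerance 0.02, at least 4 libraries) to estimate depth and for a voom alternative. Named genes were HuR, called P450 genes, the 8 most abundant in LacZ livers, genes tested in both species and listed receptor targets; others were chosen after their values were seen. The fit was tested on simulated data. Alternatives changed the pseudocount, the TPM filter, the scaling, the model and the livers included. The replicate numbers do not pair the livers. Sequences came from GENCODE M21 (GRCm38) and RefSeq (GRCm38.p6); human sequence was not used here. Of the tested human genes, 1 is not reported here by name, but it is part of the counts and sums.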

Additional observations from a re-analysis of the deposited data

Results flagged for a closer look

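CYP2E1 responded differently in humanized and WT livers, by a log2 difference of 0.87, and so did CYP1A2, by 0.82, both with an unadjusted interaction p under 0.05 in the joint limma fit.

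Single livers stood far from the rest of their group in 3 of 78 groups examined, where chance gives about 1 in 20. Cyp2c50 was 328 TPM in WT LacZ replicate 5, below its group. Cyp2d26 was 1176 TPM in WT HuR KD replicate 6 and Cyp4a10 was 3246 TPM in WT HuR KD replicate 3, both above their groups.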

How the results depend on the processing

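In humanized livers 4 P450 genes were higher, against 7 without HuR KD replicate 4 and LacZ replicate 2, 2 to 6 leaving out 1 liver, and 0 at an adjusted p under 0.05. There were 3 lower, against 5 without a TPM filter, 5 with array weights, 6 without those livers, 2 to 6 leaving out 1, and 0 adjusted. In WT livers 1 was higher, against 2 with array weights, 2 with voom and 1 to 2 leaving out 1 liver. There, 13 were lower, against 0 adjusted in the main fit and 7 adjusted with array weights. The pairs that differed between species were 2, against 4 without a filter, 3 with median-of-ratios factors, 3 with quantile normalization, 2 to 3 leaving out 1 liver and 1 adjusted. HuR mRNA in humanized livers (-0.59) did not pass adjusted. The cause of these shifts was not tested. CYP1A1, CYP1A2 and CYP4F2 kept their calls under every alternative except the adjusted threshold.

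Uncalled genes near 0 changed sign. CYP2C8 was 0.025 with median-of-ratios factors, 0.040 with protein-coding rescaling, 0.089 with quantile normalization, 0.021 with voom, 0.012 without HuR KD replicate 4 and LacZ replicate 2, and -0.13 to 0.071 leaving out 1 liver. Leaving out 1 liver gave -0.12 to 0.18 for CYP2R1, -0.88 to 0.062 for CYP3A4, -0.030 to 0.074 for Cyp2d9, -0.13 to 0.044 for Cyp3a25 and -0.087 to 0.073 for Cyp4a14. Cyp2d9 was -0.017 with quantile normalization, -0.028 with array weights and -0.025 without WT LacZ replicate 2 and HuR KD replicate 6, where Cyp3a25 was 0.00096. Cyp4a14 was 0.030 with quantile normalization and 0.00083 with voom. Leaving out 2 livers together was an alternative chosen after seeing the data.

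Samples share only a number: same-number livers did not deviate together in every pair (r from -0.25 to 0.14 in humanized and -0.14 to 0.21 in WT livers). With the replicate number as a block, 6 P450 genes were called in humanized livers (CYP4F12 was lost), 15 in WT livers and 2 pairs.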

Other observations

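P450 genes outside families 1 to 4 were listed for comparison. In humanized livers 1 rose and 2 fell of 9 tested, where 11.5% of all genes were called. CYP39A1, an oxysterol hydroxylase, was 15.4 to 22.1 TPM with HuR KD and 20.3 to 44.5 with LacZ (log2 fold change -0.82). CYP7B1, of the alternative bile acid pathway, was 6.62 to 11.1 against 11.2 to 12.9 TPM (-0.42), a call that was lost without HuR KD replicate 2 or 3 or LacZ replicate 1 or 3. CYP17A1, a steroid hydroxylase, was 4.21 to 61.8 against 1.36 to 10.7 TPM (2.75). In WT livers 1 rose and 1 fell of 10 tested, where 16.0% of all genes were called. Cyp8b1, the sterol 12α-hydroxylase of bile acid synthesis, was 1902 to 2616 TPM with HuR KD and 1517 to 2027 with LacZ (0.42, limma adjusted p = 0.0720), and Cyp27a1, the sterol 27-hydroxylase, was 387 to 521 against 500.2 to 638 TPM (-0.33, limma adjusted p = 0.0830).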
